A study of Macaca mulatta with 6 samples.

Results

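Interleukin-18 (IL18), interleukin-1 alpha (IL1A) and interleukin-1 beta (IL1B) were followed in luteal cells of the rhesus macaque after activation of the liver X receptors. The 3 genes were found by their symbols in the array's annotation, among 14132 named genes, and were read by 5 of the 52766 probe sets tested. IL18 and IL1A had 1 probe set each and IL1B had 3. The genes were taken up because the change of IL18 under the agonist was known to be large, and the IL-1 cytokines were added as its relatives. Their changes are therefore described here without a test.

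The tested cultures received 1 µM of the synthetic liver X receptor agonist T0901317, and the vehicle cultures received 0.1% dimethyl sulfoxide (DMSO). There were 3 biological replicates of each, paired by replicate number according to the design text. All cultures held cells dispersed from the corpus luteum, the ovarian gland that makes progesterone once an egg has been released, at day 12 from the luteinizing hormone surge. They were kept in serum-free medium on fibronectin for 24 h, with treatment from the time of plating. The labels give no genotype, age or number of animals.

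IL-1 alpha, IL-1 beta and IL-18 belong to 1 family of inflammatory cytokines. IL-1 beta and IL-18 are made as inactive precursors, which caspase-1 cuts within an inflammasome, whereas the IL-1 alpha precursor is already active. Each cytokine binds a receptor pair at the cell surface that signals through MYD88 and IRAK kinases to NF-kB. IL-18 is known above all for driving interferon gamma in T and NK cells, and IL-1 for inducing chemokines, IL-6 and matrix proteases. In the corpus luteum these cytokines are usually ascribed to resident and incoming macrophages. In mouse macrophages, agonists of the liver X receptors are known to repress Il1b and other inflammatory genes. IL1A and IL1B are neighbours in the RefSeq annotation of the rhesus assembly T2T-MMU8v2.0, with 0 protein-coding genes between them, and IL18 lies on another chromosome. No coordinates are printed, since the sources used here do not name the build of the array.

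Values are RMA levels on the log2 scale, where a difference of 1 is a doubling of signal. The medians of the arrays lay between 5.54 and 5.71, and the highest value on each lay between 14.67 and 14.74. A level of 4.63, the 95th percentile of the Bacillus control probe sets, served as a reference for dim signal. RNA quality differed: actin control probe sets at the 3′ end exceeded those at the 5′ end by 2.03, 1.54 and 2.45 with T0901317 in replicates 1, 2 and 3, against 1.71, 1.57 and 3.50 with DMSO. The agonist raised MYLIP, a known target that encodes a ubiquitin ligase, by 2.49, 2.04 and 2.65 in the 3 pairs. NR1H3, which encodes liver X receptor alpha, was higher by 1.42, 1.02 and 1.29.

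IL18 was higher with T0901317 in 3 of 3 pairs. Its probe set, MmuSTS.2541.1.S1_at, had levels of 6.76, 8.92 and 6.56 with T0901317 in replicates 1, 2 and 3, against 6.02, 7.20 and 4.98 with DMSO. Every treated culture lay above its own vehicle culture, but the groups overlapped, since the vehicle culture of replicate 2 lay above the treated cultures of replicates 1 and 3.

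The paired differences of IL18, T0901317 minus DMSO, were 0.74, 1.73 and 1.58, or 1.68-fold, 3.31-fold and 3.00-fold. Their mean was 1.35 ± 0.53 (SD, n = 3 pairs). IL18 had the fourth highest mean difference of the 14132 named genes, and it was 1 of the 45 probe sets (0.0853% of those tested) that passed limma's adjusted p of 0.05. That call is what chose the gene and is no separate evidence. The smallest difference of IL18 fell in pair 1, whereas MYLIP and NR1H3 had their smallest in pair 2.

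The level of IL18 also differed widely between replicates. Its mean was 7.41 ± 1.31 with T0901317 and 6.06 ± 1.11 with DMSO (SD, n = 3 each). The order was replicate 2, then 1, then 3 in both groups. The SD over the vehicle cultures exceeded that of 98.9% of all probe sets. The lowest level, 4.98 in the vehicle culture of replicate 3, lay just above the dim reference of 4.63, on the array with the largest actin 3′ minus 5′ difference. Without replicate 3 the mean difference of IL18 was 1.24.

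**Figure D1:**
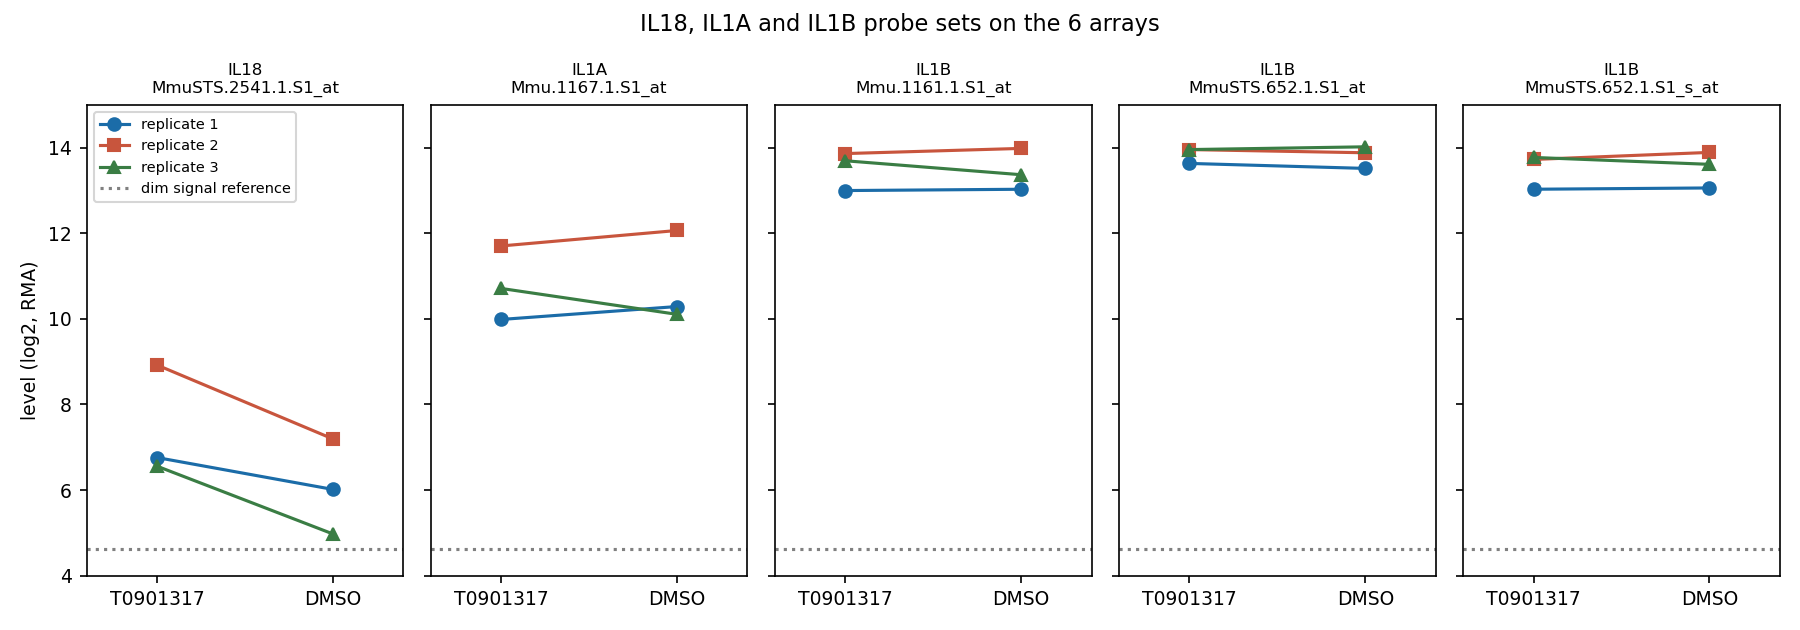
Levels (vertical axis, log2 RMA values) of the 5 probe sets of IL18, IL1A and IL1B, 1 panel each, with T0901317 on the left and DMSO on the right (horizontal axis). Lines join the cultures of a replicate, with no error bars, and the dotted line is the dim reference of 4.63. For IL18 all 3 lines are higher at T0901317, while for IL1A and IL1B they run both ways.

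IL1A did not share the pattern of IL18. Its probe set had levels of 9.99, 11.70 and 10.71 with T0901317 in replicates 1, 2 and 3, against 10.29, 12.07 and 10.11 with DMSO. It was lower with T0901317 in pairs 1 and 2 and higher in pair 3, and the groups overlapped.

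The paired differences of IL1A were -0.30, -0.36 and 0.61, with a mean of -0.019 ± 0.54 (SD, n = 3 pairs). Leaving out replicate 3 gave -0.33, and leaving out replicate 1 or 2 gave 0.12 or 0.15, so its direction depended on the pairs used. Replicate 2 was the highest in both groups, and the vehicle SD of 1.08 was about as wide as that of IL18.

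IL1B was strongly expressed in every culture and differed little between the groups. Probe set MmuSTS.652.1.S1_at, the brightest of its 3 by mean level, had levels of 13.63, 13.96 and 13.96 with T0901317 in replicates 1, 2 and 3, against 13.52, 13.88 and 14.02 with DMSO. The probe set made from a separate IL1B sequence entry had 13.00, 13.86 and 13.69 with T0901317, against 13.03, 13.98 and 13.37 with DMSO. Probe set MmuSTS.652.1.S1_s_at had 13.03, 13.73 and 13.77 with T0901317, against 13.06, 13.89 and 13.61 with DMSO. The groups overlapped on all 3 probe sets.

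The mean differences of IL1B were 0.042 ± 0.095, 0.058 ± 0.24 and -0.011 ± 0.16 on MmuSTS.652.1.S1_at, the probe set of the separate entry and MmuSTS.652.1.S1_s_at (SD, n = 3 pairs), and none had the same sign in all pairs. On the probe set of the separate entry the pair values ran from -0.12 to 0.33, so that a shift of that size would lie within their spread. Replicate 1 was the lowest in both groups on each IL1B probe set. The probe sets differed in their spread, with vehicle SDs of 0.26 on MmuSTS.652.1.S1_at, 0.48 on that of the separate entry and 0.42 on MmuSTS.652.1.S1_s_at. Levels of 13.00 to 14.02 were close to the highest values on the arrays, and whether changes are compressed there was not tested.

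The other cytokines of the family that were measured under a name, IL33, IL36A, IL36B, IL36G and IL37, gave 0 that rose and 0 that fell of 5. IL36A, an epithelial cytokine, had a mean difference of 0.14 ± 0.12 (limma's SE here and below for genes other than IL18, IL1A and IL1B, n = 3 pairs), and IL36G one of -0.14 ± 0.13. Both had limma adjusted p = 1.00. IL36A had mean levels of 5.34 with T0901317 and 5.20 with DMSO, not far above the dim reference.

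Of the inhibitors, 4 were measured and 0 passed the threshold in either direction. IL1RN encodes the IL-1 receptor antagonist, a soluble protein that occupies the IL-1 receptor without signalling. Its brightest probe set, MmugDNA.23425.1.S1_at, had levels of 8.30, 9.06 and 8.25 with T0901317 in replicates 1, 2 and 3, against 8.28, 8.24 and 8.06 with DMSO. The treated culture of replicate 2 stood apart from the other 5, and the groups overlapped.

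The mean difference of IL1RN was 0.34 ± 0.14 (limma adjusted p = 1.00, unadjusted p = 0.0276). Its other 2 probe sets had means of 0.15 and 0.28 and were lower with T0901317 in pair 1. IL1R2, a decoy receptor that binds IL-1 without signalling, had a difference of 0.054 ± 0.10. IRAK3, which restrains IRAK signalling, had -0.14 ± 0.11, with all 3 pairs below 0. Both had limma adjusted p = 1.00. IL18BP, the soluble inhibitor of IL-18, was not analysed here.

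Receptor genes gave 0 calls of 4 measured. IL1RAP, the accessory chain shared by the IL-1 and IL-33 receptors, had a mean difference of 0.27 ± 0.17 (limma adjusted p = 1.00), which came from pair 3 at 0.80 while pairs 1 and 2 lay at -0.0015 and -0.0042. IL18RAP, the accessory chain of the IL-18 receptor, had -0.14 ± 0.13 (limma adjusted p = 1.00) and mean levels of 4.78 with T0901317 and 4.92 with DMSO. IL1R1 and IL18R1, the ligand-binding chains, were not analysed here.

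Among genes of inflammasomes and precursor processing, 14 were measured, 11 of them above the dim reference, and 0 passed. NLRP3, the sensor of the best known inflammasome, had levels of 6.07, 7.11 and 6.24 with T0901317 in replicates 1, 2 and 3, against 5.93, 7.21 and 6.02 with DMSO. The replicates differed more than the groups did, and the mean difference was 0.089 ± 0.12 (limma adjusted p = 1.00). The differences of largest size in this list were those of CASP8 and ELANE. CASP8, a caspase of cell death that can also cut the IL-1 beta precursor, had -0.39 ± 0.16 (limma adjusted p = 1.00), with -0.35, 0.0098 and -0.84 in the pairs. Its other probe set, MmugDNA.13586.1.S1_at, had -0.29, -0.27 and -0.16 in the pairs, with a mean of -0.24. ELANE, neutrophil elastase, had 0.19 ± 0.16 (limma adjusted p = 1.00). CASP1 was not analysed here.

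Signalling genes downstream of the receptors gave 0 calls of 8. TRAF6, a ubiquitin ligase that relays the signal from the IRAK kinases, had 0.16 ± 0.14, and MAP3K7, the kinase next in line, had 0.093 ± 0.14. Both had limma adjusted p = 1.00. Pair 3 was the highest for both, with -0.12, 0.079 and 0.52 for TRAF6 and -0.22, -0.032 and 0.53 for MAP3K7. Without replicate 3 their means were -0.019 and -0.13. The other probe sets of MAP3K7 had means of -0.063 and -0.029. MYD88 was not analysed here.

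Genes that IL-1 or IL-18 are known to induce gave 0 calls of 14, with 11 below 0 and 3 above. The share above 0 was 21.4%, against 41.4% of all named genes. IL6, an inflammatory cytokine, had levels of 11.41, 12.05 and 10.64 with T0901317 in replicates 1, 2 and 3, against 11.72, 12.41 and 11.08 with DMSO. Each treated culture lay below its vehicle culture although the groups overlapped.

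The difference of IL6 was -0.37 ± 0.064 (limma adjusted p = 0.0863), and it passed when the probe sets of each gene were averaged (-0.42, limma adjusted p = 0.00502), a fit in which 0.262% of genes passed. CCL20, a chemokine for lymphocytes and dendritic cells, had -0.34 ± 0.12 (limma adjusted p = 1.00), with 1 of 3 pairs above 0. Interferon gamma, the product most tied to IL-18, stayed below the dim reference, with mean levels of 3.82 with T0901317 and 3.81 with DMSO.

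Over the 6 role groups together, 0 of 49 measured genes rose and 0 fell in limma's fit, against 25 or 0.177% of all named genes called in either direction. At an unadjusted p under 0.05 there were 8 of 49, or 16.3%, against 3.73% of all named genes. Of these, 5 were genes that IL-1 or IL-18 are known to induce (35.7% of the 14 measured), 2 were processing genes and 1 was an inhibitor. Only the inhibitor, IL1RN, was higher with T0901317, and the others were lower. The count of 8 rested on the replicates used. It was 5 without replicate 1 and 10 without replicate 3 (10.2% and 20.4%, against 3.35% and 5.31% of named genes). Without replicate 2 it was 2 of 49, or 4.08%, close to the 3.65% of named genes. With probe sets averaged it was 4 (8.16%, against 4.80% of named genes). Without the replicate block it was 0, where only 0.134% of named genes reached that p. It was 6 after cyclic loess (12.2%, against 3.96%) and 4 without the variance trend (8.16%, against 3.16%). With dim probe sets left out it was 8 of 44 (18.2%, against 3.94%). The 49 differences ran from -0.39 to 0.34, with a median of -0.021, which is the median of all named genes as well (-0.021). Of them 36.7% lay above 0, against 41.4% of all named genes. The differences of IL18 in pairs 2 and 3 were outside the range of the pair values of all these genes. Without replicate 3, whose vehicle array had the largest actin difference, 5 of 49 passed. A fit on 2 pairs leans on the variance of other probe sets, so these calls are weak. In the fit without replicate 3 IL1RN rose (0.42, from 0.025 and 0.82 in pairs 1 and 2). IL6 (-0.34), CXCL8 (-0.27), CCL20 (-0.53) and MMP1 (-0.19) fell in it, while 0.622% of all probe sets passed. The value of CXCL8 rested on that choice: its difference was -0.018 over all 3 pairs, 0.13 without replicate 1 and 0.088 without replicate 2. CCL20 was at -0.26 without replicate 1 and -0.24 without replicate 2, and IL1RN at 0.11 without replicate 2. CXCL8 and MMP1 are named here only for this count, after their values were seen.

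**Figure D2:**
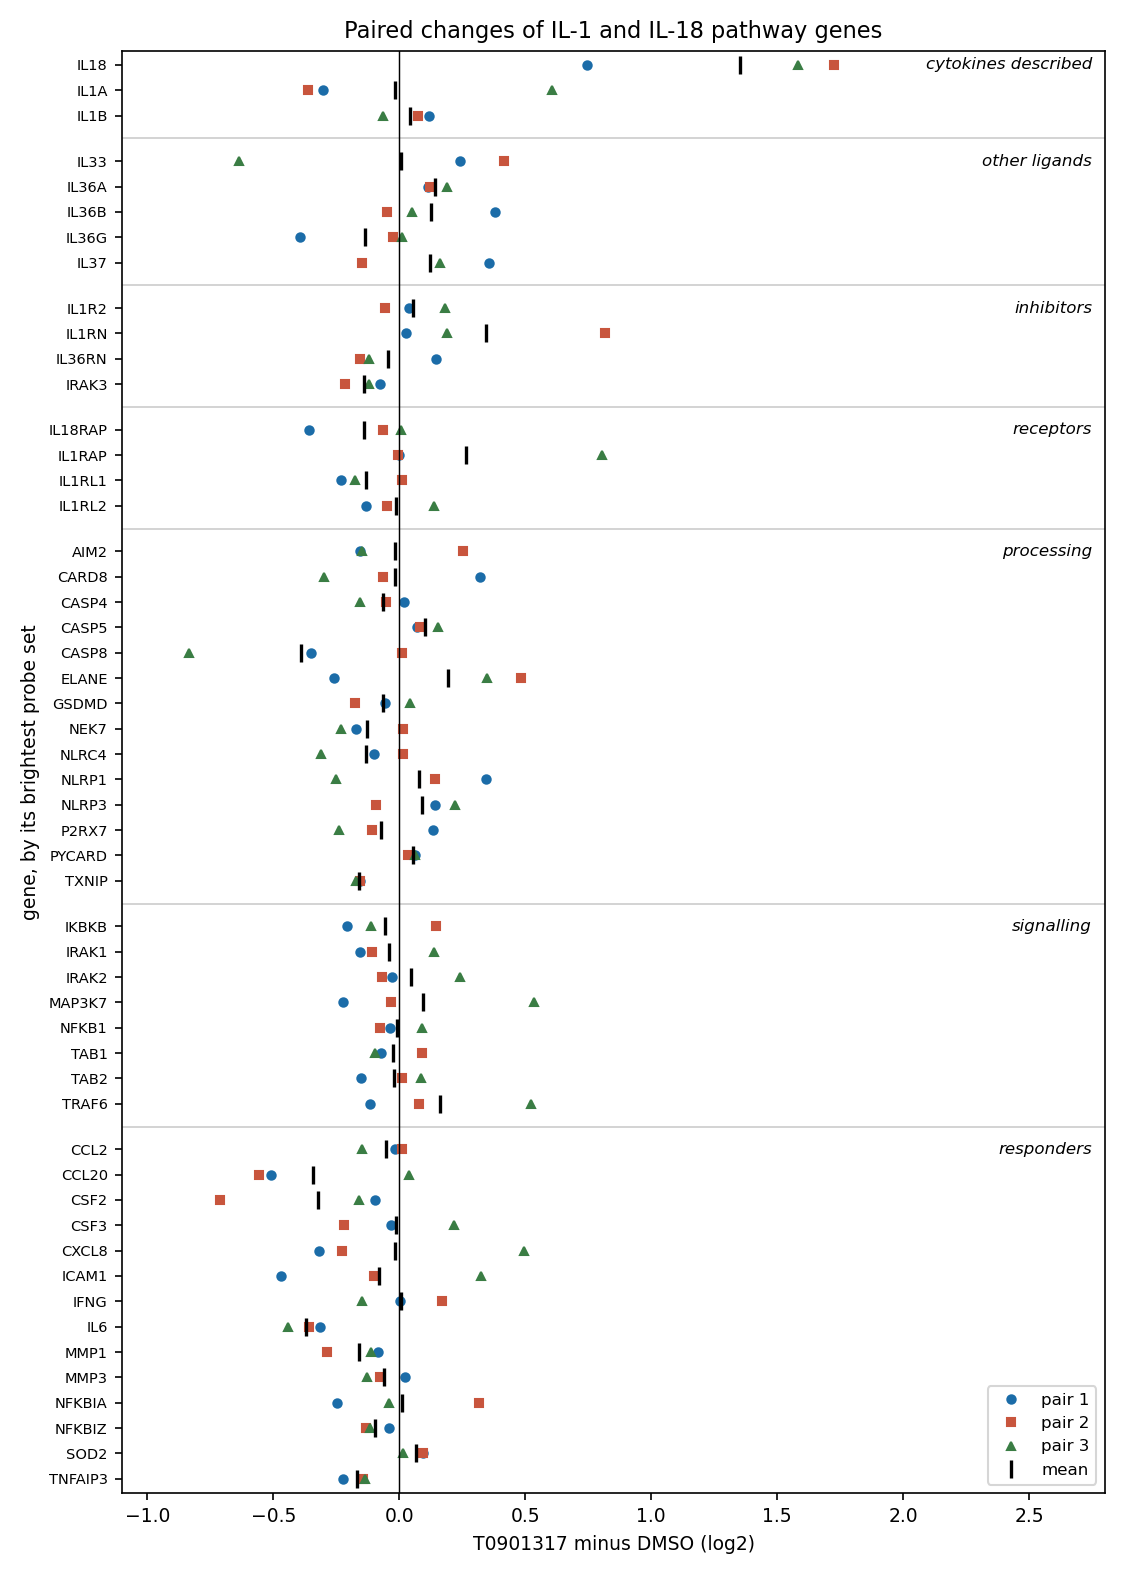
Differences between T0901317 and DMSO (horizontal axis, log2) for IL18, IL1A, IL1B and the 49 other measured genes of the pathway (vertical axis, grouped by role). Symbols are the 3 pairs and the black bar is their mean. The 3 symbols of IL18 lie at 0.74, 1.73 and 1.58, and the means of the 49 genes lie between -0.39 and 0.34.

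Transcription factors known to act on these cytokine genes were listed too, and 0 of 3 measured passed. IRF8, a factor of the macrophage lineage, had a difference of 0.16 ± 0.096 (limma adjusted p = 1.00) with 3 of 3 pairs above 0 on its brightest probe set. Its probe set MmuSTS.164.1.S1_at had -0.12, 0.10 and 0.22 in the pairs, with a mean of 0.068. MmugDNA.9914.1.S1_at, below the dim reference, was lower with T0901317 in pair 2. IRF1, an interferon response factor, had -0.086 ± 0.085 (limma adjusted p = 1.00).

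The RNA came from a mixed cell suspension, in which fewer cells of a type and less RNA per cell cannot be told apart. Macrophage markers had a median level of 7.20, 8.71 and 8.64 with T0901317 in replicates 1, 2 and 3, against 7.31, 8.80 and 8.48 with DMSO. All 12 measured markers had a mean above the dim reference, and 0 of 12 passed. The difference of that median level was -0.11, -0.084 and 0.16 in the pairs, smaller than the differences of IL18. CD14, a co-receptor for bacterial lipopolysaccharide, had 9.99, 11.63 and 11.58 with T0901317, against 10.02, 11.83 and 11.39 with DMSO, and TYROBP, an adaptor of myeloid receptors, differed by -0.29 ± 0.075 (limma adjusted p = 0.657). Replicate 1 was the lowest in both groups for 10 of the 12 markers, as it was for IL1B but not for IL18, whose lowest replicate was 3. The exceptions, named after their values were seen, were MRC1, lowest in replicate 3, and ITGAM, lowest in replicate 2, on their brightest probe sets. The other probe sets of MRC1 were the lowest in replicate 1 of both groups. Of these, MmuSTS.1523.1.S1_at had 6.20, 9.39 and 8.47 with T0901317, against 6.63, 9.43 and 8.39 with DMSO. CD68, counted with the 10, was the lowest in replicate 2 of both groups on its dimmer probe set.

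Markers of other cells gave 0 calls as well. Endothelial markers (0 of 7) had a median difference of 0.22, led by level by PECAM1 (0.23 ± 0.11) and CDH5 (0.39 ± 0.10; limma adjusted p = 0.682). Of the endothelial markers 85.7% lay above 0, against 41.4% of all named genes. Higher in all 3 pairs were 71.4% of them, against 9.43% of all named genes. Without replicate 3 the median was 0.14 and PECAM1 was at 0.091. Neutrophil markers (0 of 5, with 4 below 0) had a median difference of -0.083, or -0.20 without replicate 2. The brightest, S100A9, had -0.56 ± 0.14 (limma adjusted p = 0.565). The next, MPO, had mean levels of 5.99 with T0901317 and 5.87 with DMSO. S100A12 lay below the dim reference. T and NK cell markers (0 of 5) had a median difference of -0.12, with KLRD1 at -0.074 ± 0.066 and GZMB at -0.12 ± 0.070. All 5 lay below 0, and 80% were lower in all 3 pairs, against 15.8% of all named genes. CD7 lay below the dim reference, and the CD3 genes were not analysed here. Fibroblast and pericyte markers (0 of 5) had -0.10, with DCN at -0.041 ± 0.065 and COL1A2 at -0.035 ± 0.058. All 5 of these lay below 0 too, and 20% were lower in all 3 pairs. What lay behind these shared directions was not tested.

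Luteal genes stood for the labelled cell type. Of 6 measured, 0 passed, and all 6 had means above the dim reference. Their median difference was -0.13, with 4 of 6 below 0. The share above 0 was 33.3%, against 41.4% of all named genes. STAR, which brings cholesterol into mitochondria, averaged 10.91 with T0901317 and 11.00 with DMSO, and FDX1, an electron carrier of steroid synthesis, averaged 11.26 with T0901317 and 11.17 with DMSO. Of the others, named after their values were seen, INHA (-0.21) and HSD3B2 (-0.18) were lower with T0901317 in 3 of 3 pairs, and NR5A1 (-0.22) in 2 of 3. All 3 had limma adjusted p = 1.00. CYP11A1 and LHCGR were not analysed here. The part of any cell type in the changes of IL18 was not tested.

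**Figure D3:**
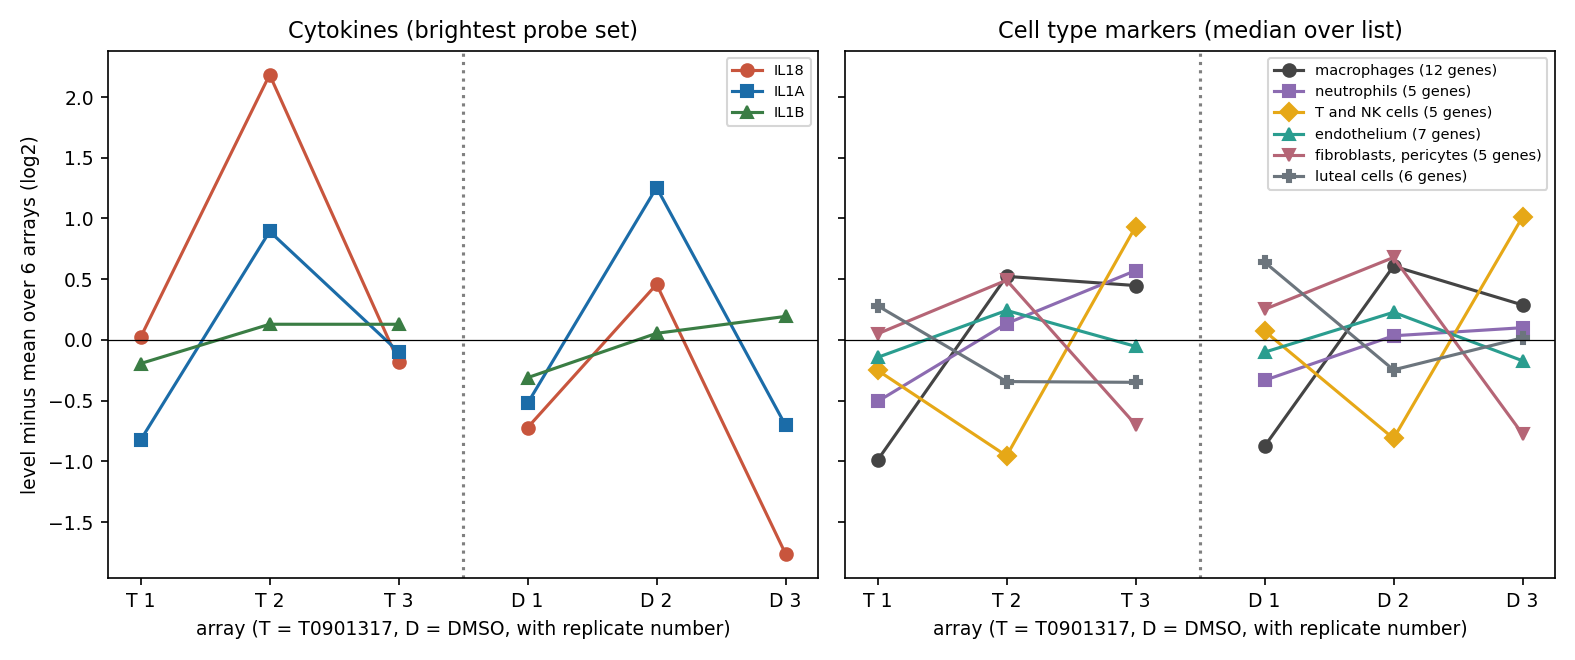
Levels minus their mean over the 6 arrays (vertical axis, log2) for IL18, IL1A and IL1B (left) and for the median of each marker list (right), on each array (horizontal axis, T0901317 left of DMSO, no error bars). IL18 is the highest in the treated culture of replicate 2 and the lowest in the vehicle culture of replicate 3, and the macrophage median is the lowest in replicate 1 of both groups.

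The genes most like each cytokine were found by the root mean square distance between profiles over the 6 arrays, each centred on its own mean, among 14129 other named genes. For IL18 the nearest were ACKR3, a scavenging chemokine receptor (0.53), ADAMDEC1, a secreted metalloprotease (0.58), ADAMTS5, a protease of matrix proteoglycans (0.58), EIF5A, a translation factor (0.59), and CCNG2, a cyclin (0.63). The median distance over all genes was 1.22. ADAMDEC1 differed by 1.66 ± 0.59 between T0901317 and DMSO (SD, n = 3 pairs) and the other 4 by 0.24 to 0.38. ADAMDEC1 and the other 4 were the highest in replicate 2 of both groups, as IL18 was. Of the 4, 3 had the order of IL18, replicates 2, 1 and 3, in both groups. EIF5A was the exception, with 8.47, 10.40 and 8.51 with T0901317 in replicates 1, 2 and 3, against 8.71, 10.35 and 7.51 with DMSO.

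For IL1A the nearest were IL10RB, a chain of the interleukin-10 receptor (0.16), NINJ2 (0.17), GTSE1 (0.18), LOC694628 (0.19) and SLC25A36, a mitochondrial carrier (0.22), against a median of 0.83. All 5 were the highest in replicate 2 of both groups, and their mean differences lay between -0.040 and 0.11. For IL1B they were GLIPR1L1, LSP1, a leukocyte actin-binding protein, TP53TG5, C1QTNF3 and SDCBP, at 0.024 to 0.046 against a median of 0.27. These are neighbours of the brightest IL1B probe set only. The gene's other probe sets lay farther from it, at 0.28 for that of the separate entry and 0.20 for MmuSTS.652.1.S1_s_at. The profile of IL1B on its brightest probe set is nearly flat, and GLIPR1L1 lay below the dim reference, with mean levels of 2.70 with T0901317 and 2.63 with DMSO. Such nearness over few arrays, which share the differences between replicates and in RNA quality, describes these samples only.

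**Figure D4:**
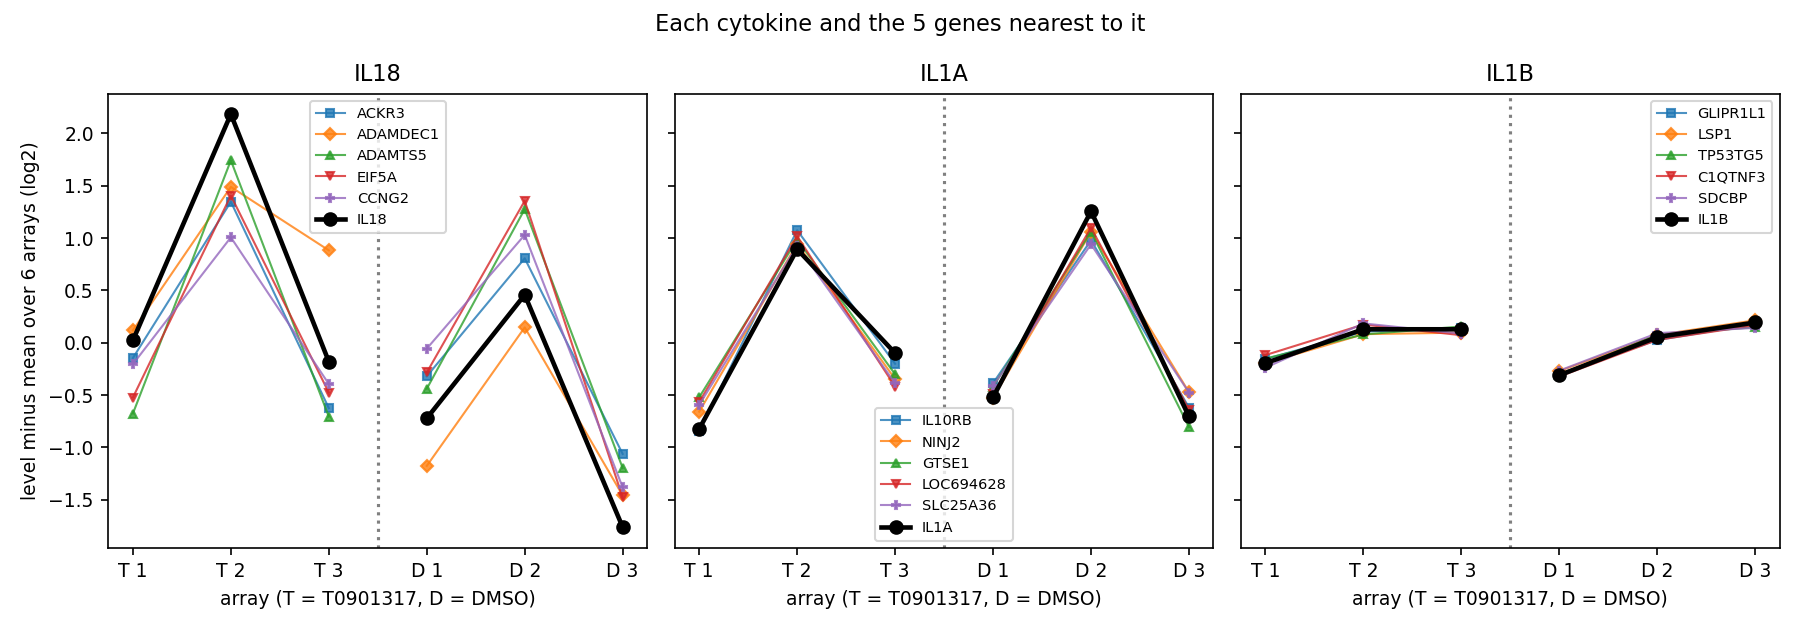
Levels minus their mean over the 6 arrays (vertical axis, log2) of each cytokine, in black, and of the 5 genes nearest to it, on each array (horizontal axis, T0901317 left of DMSO, no error bars). IL18 stands above ACKR3, ADAMTS5, EIF5A and CCNG2 on all 3 treated arrays and below them on all 3 vehicle arrays, whereas the genes near IL1A follow its peak in replicate 2 of both groups.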

How the data were processed

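The deposited values are log2 levels per probe set, which the authors made with RMA per the submitters' processing notes; its version and settings are not given in the sources used here. From them 99 control probe sets were left out. Gene symbols came from the platform annotation, and 24956 of 52766 probe sets had 1 symbol, 361 several and 27449 none. Symbols were updated by gene number through the RefSeq table for T2T-MMU8v2.0, which held 24616 of them and changed 0. The probe set of highest mean level stood for each gene.

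T0901317 and DMSO were compared with limma 3.58.1 in R 4.3.3, with the replicate number as a block, a variance trend and Benjamini-Hochberg adjustment over all probe sets at 0.05. The fit was also run on simulated data with noise drawn from its own variance model, so that run does not test its assumptions on these arrays. With 3 pairs, the smallest two-sided p of an exact sign-flip test is 0.25. The pairing comes from the design text. Arrays of the same number had deviations that correlated at 0.658, 0.813 and 0.830 across probe sets, against at most 0.197 between numbers. No pair of arrays shared over 0.328% of their values exactly. The titles call the replicates biological, but the labels name no animals, and p-values measure the spread between these samples only. The number of arrays limits the precision, and no scan date was used here.

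The cytokines, role groups and marker lists were chosen with earlier results of these data known. Named were IL18, IL1A and IL1B; the called genes and the 2 of largest change of each role group; IL1RN, IL18BP, IL1R1, IL1R2, IL18R1, IL18RAP, CASP1 and NLRP3; MYLIP and NR1H3; the 5 nearest genes; and the 2 brightest of each marker list. Other genes were named after their values were seen. Alternatives were the fit without the block or without each replicate, cyclic loess, no dim probe sets, no trend and the mean of a gene's probe sets.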

Additional observations from a re-analysis of the deposited data

How the results depend on the processing

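After cyclic loess the mean differences of IL18, IL1A and IL1B moved by less than 1 SD of their pair values. That of IL1B did so too with its probe sets averaged. Leaving out 1 of 3 pairs cannot move a mean by 1 SD of the pair values, so that comparison is not made. Leaving out the replicate block cannot move a mean difference in this balanced design, nor can averaging move IL18 or IL1A, which have 1 probe set each. Leaving out 1 replicate gave 1.16 to 1.65 for IL18, -0.33 to 0.15 for IL1A and 0.0049 to 0.096 for IL1B, and cyclic loess gave 1.36, 0.012 and 0.050. The number of probe sets past the threshold in limma depended far more on the processing. Without the replicate block it was 0 in place of 45, with 143 at an unadjusted p under 0.05, and 0 of 49 pathway genes passed. It was 35 to 328 with 1 replicate left out, where each fit rests on 2 pairs. After cyclic loess it was 27, and without the variance trend it was 11. The share of higher calls was 71.1% (32 higher, 13 lower), against 88.9% after cyclic loess (24 higher, 3 lower), 90.9% without the trend (10 higher, 1 lower), 85.7%, 50% and 63.7% without replicate 1, 2 or 3 (30, 36 and 209 higher, 5, 36 and 119 lower), and 45.9% of genes with probe sets averaged (17 higher, 20 lower). Of the pathway genes 0 to 5 passed with 1 replicate left out, the 5 without replicate 3, and 1, IL6, with probe sets averaged. The cause was not tested. Levels near 4.63 limit what IL18RAP, interferon gamma and the vehicle level of IL18 in replicate 3 can show.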

Other observations

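IL1RL1, the receptor chain that binds IL-33, was higher in replicate 3 than in the other replicates whatever the treatment. It was looked at after its values were seen. Replicate 3 also had the largest actin 3′ minus 5′ difference in each group, 2.45 with T0901317 and 3.50 with DMSO. The part of RNA quality in the differences of this replicate was not tested. Its brightest probe set had levels of 8.73, 8.86 and 10.56 with T0901317 in replicates 1, 2 and 3, against 8.96, 8.85 and 10.74 with DMSO. Replicate 3 was the highest in both groups on all 4 probe sets of the gene. On the brightest probe set of each gene, 3 of 5 T and NK cell markers were the highest in replicate 3 of both groups. The other 2, KLRD1 and CD7, were the lowest there, but CD7 lay below the dim reference. GNLY, a granule protein of these cells, had 9.85, 9.14 and 11.10 with T0901317, against 10.17, 9.29 and 11.21 with DMSO. KLRD1, a receptor chain of NK cells, had 11.32, 11.14 and 11.03 with T0901317 on its brightest probe set, against 11.37, 11.23 and 11.11 with DMSO. Its other probe sets were all the highest in replicate 3 of both groups. The next brightest, MmugDNA.17475.1.S1_s_at, had 7.36, 8.25 and 9.81 with T0901317, against 7.41, 8.17 and 9.74 with DMSO. IL33 itself was the lowest in replicate 3 of both groups, with 9.52, 10.58 and 8.35 with T0901317, against 9.28, 10.16 and 8.98 with DMSO.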
